A study of Mus musculus with 16 samples.

Results

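Ovaries of mice lacking both estrogen receptors were compared with control ovaries, using the 4 arrays titled Ex3abERKO and the 4 titled control, 8 of the 16 arrays in the series. Each array measured total RNA of a whole ovary at an age of 1 year, labelled with the dye Cy3 and hybridised to a single-colour Agilent whole mouse genome array. Ex3abERKO mice lacked ERα, encoded by Esr1, and ERβ, encoded by Esr2. Control mice carried one allele of each receptor gene, so the control is not described as carrying the full set of receptor alleles. The other 8 arrays, 4 from Ex3aERKO mice without ERα and 4 from Ex3bERKO mice without ERβ, entered the estimate of the spread and are used below where the loss of both receptors is set against the loss of 1. The labels do not give the part of either gene that was removed, nor whether samples sharing a group are different animals. The p-values therefore rest on how far these samples differ among themselves, and part of that may be technical.

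Estrogen receptors are transcription factors switched on by estradiol, which granulosa cells of the ovarian follicle make from androgens supplied by theca cells. Granulosa cells nurse the oocyte and share an embryonic origin with Sertoli cells, the cells that support sperm development in the testis. In mice, granulosa identity depends on factors that hold the testis-determining gene Sox9 down, and estrogen signalling is known to be among them. The series asks what the receptors do in the conversion of granulosa cells into another cell type in aged ovaries.

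Values below are log2 signal relative to the 75th percentile of the array, called levels, and differences are Ex3abERKO minus control on the log2 scale ± the standard error of the limma fit over all 16 arrays, with n = 4 per group. The 75th percentile of the 16 arrays lay between 1211 and 1806 intensity units, and 80.4% to 87.6% of spots were well above background. Correlations across probes ran from 0.956 to 0.980 among Ex3abERKO arrays, from 0.974 to 0.986 among control arrays, and from 0.932 to 0.961 between the groups. All 8 ovarian markers set out for the purpose (Foxl2, Amhr2, Fshr, Zp3, Gdf9, Star, Cyp11a1 and Cyp17a1) were well above background on all 8 arrays. The arrays lay on 4 slides, 3 of which held both groups: slide 1 held Ex3abERKO 3 and control 1, slide 2 held Ex3abERKO 1 and 2 and control 4, slide 4 held Ex3abERKO 4 and control 3, and slide 3 held control 2 but no Ex3abERKO array. Genes of neighbouring or blood tissue stood out on single arrays. Ovgp1, an oviduct secretion, had levels of -0.33, 5.43, -2.05 and -0.14 in Ex3abERKO replicates 1 to 4, against -1.60, -1.80, -1.26 and -1.95 in control, so that Ex3abERKO 2 alone was high (difference 2.38 ± 1.17, adjusted p = 0.167). Control 4 and, less so, Ex3abERKO 3 were high in erythroid genes. Results are therefore also given without Ex3abERKO 2, control 4 and Ex3aERKO 2, the 3 arrays highest in oviduct, erythroid or liver genes, called the 3 arrays below.

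Of 24446 features tested, 5448 (22.3%) were called at an adjusted p under 0.05, 2598 (10.6%) higher and 2850 (11.7%) lower in Ex3abERKO ovaries. At least 2-fold differences were found for 1791 of the higher and 1327 of the lower ones. The arrays of the groups did not overlap for 6092 features (24.9%), 4710 of them called. Among the 5448 calls, 5292 had the same sign within each of the 3 slides that held both groups. The calls were chosen on these same arrays, so this agreement was largely fixed in advance and is no separate support. With slide as a block 5273 features were called. Without the 3 arrays the calls numbered 3226, and single arrays moved the total between 3873 (without control 3) and 6311 (without Ex3abERKO 3). Every list count against control below is to be read against the shares over all features, 10.6% higher and 11.7% lower. Of 23 counts of 1 or 2 genes of a list in 1 direction, 13 moved by over 1.5 times when a single array was left out. The median difference over all features was -0.11, and it was -0.36 when the background was corrected with normexp in place of the scanner's own correction, so differences near these sizes have no settled direction. RNA of a whole ovary was measured, so fewer cells of a type and less RNA per cell cannot be told apart. The brightest probe stood for its gene, and 71 of the called genes named below had another probe that passed the background filter. For 17 of them no other probe was called in the same direction. These were Aplnr, Bmp6, Cbx2, Cgn, Col15a1, Csf1r, Cyp2a5, Dcn, Esr1, Fdft1, Gjb2, Kitl, Krt7, Lyve1, Ncoa3, Pik3c2g and Ppargc1a, and their calls rest on 1 probe. The other probe had a difference of similar size for some, such as Esr1 (-1.63 and -1.485) and Lyve1 (2.26 and 1.74). For others it did not, such as Pik3c2g (-4.44 and -0.01) and Fdft1 (-2.20 and 0.58).

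**Figure D1:**
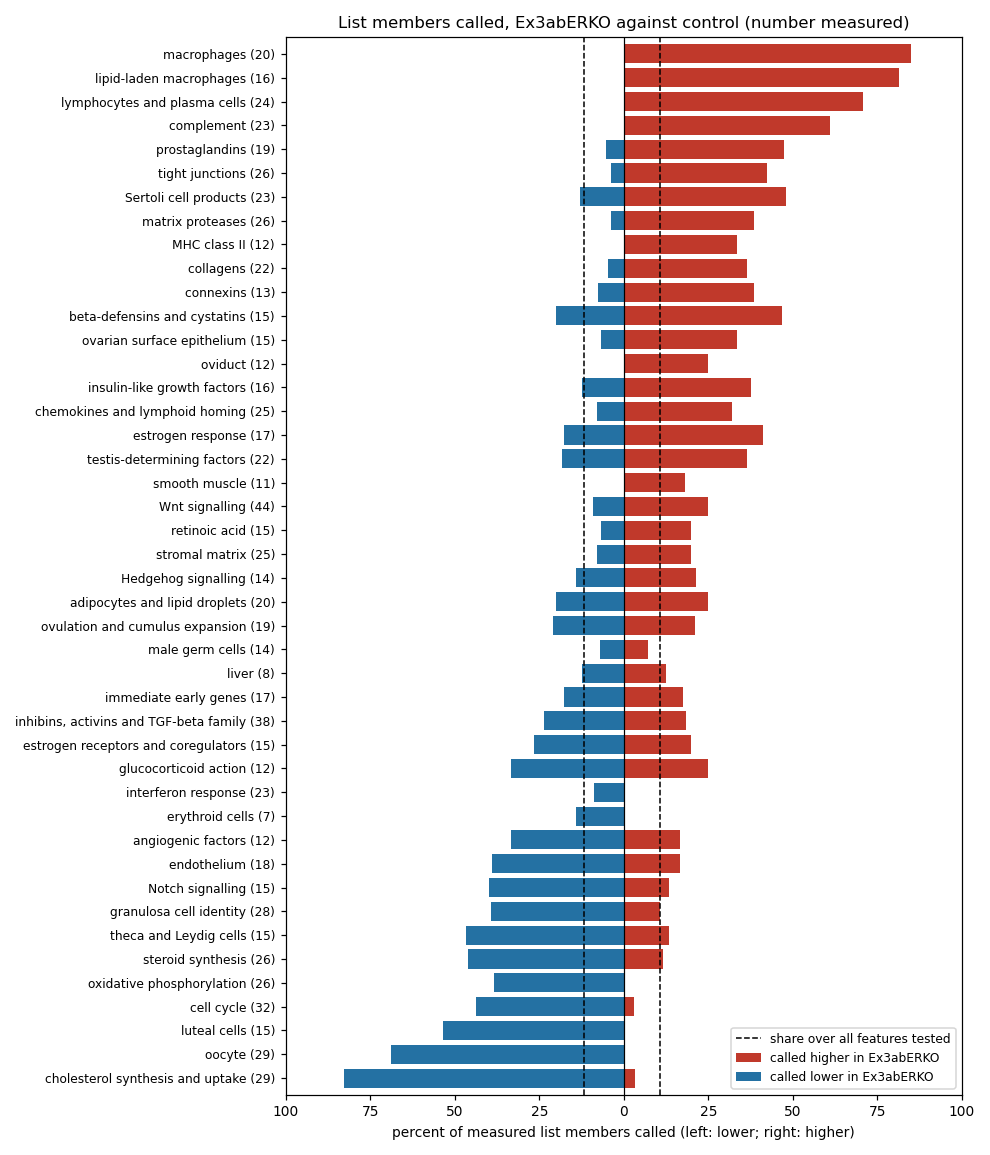
Percent of the measured members of each of 44 gene lists called higher (red, right) and called lower (blue, left) in Ex3abERKO against control ovaries. The number measured stands in brackets, and dashed lines mark the shares over all 24446 features, 10.6% higher and 11.7% lower. Macrophage, lipid-laden macrophage, lymphocyte and complement lists extend farthest to the right, and cholesterol, oocyte and luteal lists farthest to the left.

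Both receptor transcripts were lower without the receptors. The Esr1 probe lies on chromosome 10, 5343241 to 5343300 (mm7), and gave levels of -1.86, -1.04, -2.11 and -1.93 in Ex3abERKO, against -0.32, -0.17, -0.12 and 0.20 in control. Esr2, read at chromosome 12, 74079895 to 74079954, had levels of -1.62, -2.54, -1.61 and -2.53 in Ex3abERKO, against -0.22, 0.34, -0.33 and -0.23 in control. For neither gene did the groups overlap. Esr1 fell by 1.63 ± 0.38 (3.1-fold, adjusted p = 0.00652) and Esr2 fell by 1.97 ± 0.51 (3.90-fold, adjusted p = 0.0131), and neither probe was near background. Because the deleted parts are not given, these levels do not check the labels. The call of Esr2 was lost without the 3 arrays (adjusted p = 0.065).

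Of 15 measured receptors and coregulators, 3 rose and 4 fell, with a median difference of -0.30. With normexp, and without the 3 arrays, 1 was called higher. Besides the receptors, Nrip1, a corepressor needed for ovulation in mice, fell by 1.32 ± 0.23 (adjusted p = 0.00129). Ncoa3, a coactivator of nuclear receptors, rose by 0.74 ± 0.15 (adjusted p = 0.00238), and Ppargc1a, a coactivator in energy metabolism, rose by 1.21 ± 0.28 (adjusted p = 0.00756). The call of Ppargc1a was lost without the 3 arrays (adjusted p = 0.0661) and with normexp (0.68, adjusted p = 0.22).

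Among 17 genes known to respond to estrogen in the uterus or in breast cells, 7 rose and 3 fell. The 3 that fell were Rasd1, Ramp3 and Greb1. Ramp3, a partner of the adrenomedullin receptor, had levels of -1.85, -1.88, -1.48 and -1.83 in Ex3abERKO, against -0.27, -0.18, -0.43 and -0.63 in control, and fell by 1.38 ± 0.19 (adjusted p = 0.000279). Rasd1, a Ras-like protein, fell by 1.66 ± 0.36 (adjusted p = 0.00441). Greb1, a cofactor of ERα, fell by 1.18 ± 0.36 (adjusted p = 0.0278), with groups that overlapped and a call lost without the 3 arrays (adjusted p = 0.101), with normexp (adjusted p = 0.079) and without any 1 of control 2, 3 and 4 and Ex3abERKO 2 and 4 (adjusted p up to 0.0864). Those that rose were Lcn2, C3, Aqp5, Igf1, Gjb2, Ctsd and Igfbp4. The iron-binding lipocalin Lcn2 rose by 5.77 ± 1.08 (adjusted p = 0.0018), complement C3 by 4.36 ± 0.53 (20.6-fold, adjusted p = 0.000124), and the water channel Aqp5 by 2.53 ± 0.37 (adjusted p = 0.000363). The lysosomal protease Ctsd rose by 1.75 ± 0.21 (adjusted p = 0.000104).

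Factors that direct testis formation moved in both directions. Of 22 measured, 8 rose and 4 fell, with a median difference of 0.34 (-0.01 with normexp and 0.22 without Ex3abERKO 3). The number called higher was 4 with normexp and 5 without the 3 arrays or without any 1 of control 1, control 4 and Ex3abERKO 2. Sox9, the transcription factor that starts Sertoli cell formation, was read at chromosome 11, 112894739 to 112894798 (mm7), with levels of 0.08, -0.05, 1.09 and 0.96 in Ex3abERKO, against -2.84, -2.54, -2.26 and -2.12 in control. All 4 Ex3abERKO arrays lay above every control array, and Sox9 rose by 2.96 ± 0.37 (7.79-fold, adjusted p = 0.000154). Of the other probes named for Sox9, 1 had a difference below 0 and was not called. Sox8, a relative that acts with Sox9 in the testis, had levels between -3.63 and -2.92 in Ex3abERKO, against -6.61 to -5.52 in control, where it was well above background on 2 of 4 arrays. Its difference was 2.89 ± 0.32 (adjusted p = 6.5e-05), and 0.64 (adjusted p = 0.41) with normexp.

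Dmrt1, which keeps Sertoli cells from turning into granulosa-like cells in mice, had levels of -5.43, -6.28, -5.25 and -4.93 in Ex3abERKO, well above background on all 4 arrays. It was not well above background on any control array, where its signal was between -8.79 and -7.57, and was at least 2.51-fold higher in Ex3abERKO (adjusted p = 0.000397). This dim gene depended on the background correction, with a difference of -0.23 (adjusted p = 0.78) under normexp. Wt1, a gonadal transcription factor active in both sexes, rose by 1.57 ± 0.32 (adjusted p = 0.00331). Ptgds, the prostaglandin D synthase that maintains Sox9 in the fetal testis, rose by 3.18 ± 0.99 (adjusted p = 0.0318), a call lost without the 3 arrays (adjusted p = 0.132) and without any single array other than Ex3abERKO 1 (adjusted p up to 0.082).

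Of the 4 members that fell, 3 also act in the ovary. Nr5a1, which encodes the steroidogenic factor SF-1, had levels of -2.69, -3.17, -3.58 and -2.94 in Ex3abERKO, against -0.72, -0.60, -0.69 and -1.45 in control. It fell by 2.23 ± 0.25 (4.68-fold, adjusted p = 7.64e-05). Gata4, a partner of SF-1, fell by 1.21 ± 0.26 (adjusted p = 0.00463), and the Polycomb gene Cbx2 fell by 1.60 ± 0.34 (adjusted p = 0.00378). Sox9 and Nr5a1, both active in Sertoli cells of the testis, changed in opposite directions.

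Products of Sertoli cells included Etd, one of the 15 largest increases. Of 23 measured, 11 rose and 3 fell, and the median difference was 1.39, against -0.11 over all features. Its values within slides 1, 2 and 4 were 2.52, 0.90 and 1.45. The fit without the 3 arrays called 1 lower. Etd, named for embryonic testis differentiation and read at chromosome X, 48535689 to 48535748 (mm7), had levels of 1.30, 0.48, 3.53 and 2.02 in Ex3abERKO, against -4.30, -4.02, -4.06 and -4.34 in control. The lowest Ex3abERKO array was over 4 log2 units above the highest control array, and Etd rose by 6.01 ± 0.52 (64.5-fold, adjusted p = 1.15e-05). Cst9, testatin, a cystatin that appears in pre-Sertoli cells, had levels of 2.06, 1.57, 4.32 and 3.06 in Ex3abERKO, against -1.52, -2.75, -1.55 and -0.85 in control, and rose by 4.42 ± 0.51 (21.4-fold, adjusted p = 8.74e-05). Cldn11, the claudin of the blood-testis barrier, had levels of 2.26, 2.23, 3.42 and 2.77 in Ex3abERKO, against -1.95, -2.33, -1.99 and -1.69 in control, and rose by 4.66 ± 0.46 (25.2-fold, adjusted p = 2.84e-05). Ex3abERKO 3 was the highest array for each of these genes.

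Further Sertoli products that rose were the defensin Defb36 (24.9-fold), Aard (10.6-fold), the protease inhibitor Eppin (9.37-fold), transferrin Trf (5.85-fold), the sex hormone-binding globulin Shbg (4.49-fold) and Tesc (3.76-fold), with adjusted p-values from 1.94e-05 for Defb36 to 0.00369 for Shbg. The groups did not overlap for any of these 6. Cst8, a cystatin first described in the epididymis, went the other way, with levels of 1.40, -0.18, 1.35 and -0.68 in Ex3abERKO, against 6.19, 3.69, 4.96 and 6.28 in control (difference -4.81 ± 0.61, adjusted p = 0.000153). Rhox5, a homeobox gene that androgen drives in Sertoli cells, fell by 0.92 ± 0.22 (adjusted p = 0.00776), a call lost without the 3 arrays (adjusted p = 0.0596). Of 14 male germ cell genes, 1 was called higher (Stra8, which starts meiosis) and 1 lower (Ldhc). Each is 7.14% of the list, near the shares over all features of 10.6% higher and 11.7% lower. Ldhc, a lactate dehydrogenase that oocytes also carry, fell by 2.20 ± 0.39 (adjusted p = 0.00117). Stra8 differed by 1.16 ± 0.37 (adjusted p = 0.0379), with overlapping groups, a call lost without the 3 arrays (adjusted p = 0.13) and without any single array other than control 2 and Ex3abERKO 1 (adjusted p up to 0.107), and -0.04 with normexp.

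**Figure D2:**
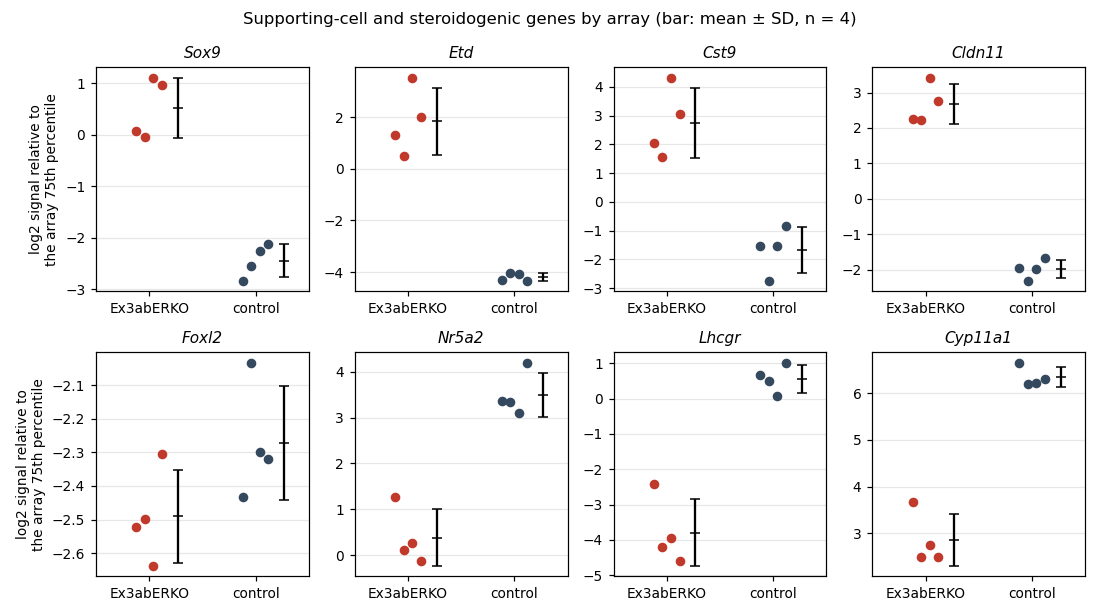
Log2 level by array of 4 genes linked to Sertoli cells (top) and 4 genes of granulosa or steroid-making cells (bottom), with the 4 Ex3abERKO arrays in red at the left and the 4 control arrays at the right of each panel. Bars are the mean ± SD (n = 4), and each panel has its own scale. Sox9, Etd, Cst9 and Cldn11 are higher and Nr5a2, Lhcgr and Cyp11a1 lower on every Ex3abERKO array, while the Foxl2 arrays overlap within a range under 1 log2 unit.

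Granulosa genes were called lower more often than higher, and Foxl2 was not called. Of 28 measured, 11 fell and 3 rose, with a median difference of -0.83 and within-slide medians of -0.67, -0.54 and -0.73 on slides 1, 2 and 4. Foxl2, the transcription factor that holds granulosa identity, had levels of -2.52, -2.50, -2.64 and -2.31 in Ex3abERKO, against -2.43, -2.03, -2.30 and -2.32 in control. The arrays overlapped, and the difference of -0.22 ± 0.15 was not called (adjusted p = 0.345). The members that fell most were Lhcgr, Ihh and Nr5a2. Lhcgr, the receptor for luteinizing hormone, had levels of -2.43, -4.21, -3.94 and -4.59 in Ex3abERKO, against 0.67, 0.50, 0.07 and 1.02 in control, and fell by 4.36 ± 0.57 (20.5-fold, adjusted p = 0.00019). Nr5a2, the nuclear receptor LRH-1 needed for ovulation, had levels of 1.28, 0.11, 0.26 and -0.12 in Ex3abERKO, against 3.35, 3.34, 3.1 and 4.20 in control, and fell by 3.11 ± 0.37 (8.66-fold, adjusted p = 0.000103). Every Ex3abERKO array lay below every control array for both genes.

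Ihh, the Hedgehog ligand by which granulosa cells recruit theca cells, fell by 3.38 ± 0.76 (10.4-fold, adjusted p = 0.0059). The follistatin gene Fst fell by 2.48 ± 0.46 (adjusted p = 0.00156), the activin subunit gene Inhba by 1.94 ± 0.43 (adjusted p = 0.0051), anti-Müllerian hormone Amh by 1.90 ± 0.45 (adjusted p = 0.00743) and the inhibin subunit gene Inha by 1.42 ± 0.36 (adjusted p = 0.0115). The homeobox gene Irx3 fell by 1.44 ± 0.29 (adjusted p = 0.00254). Gja1, the connexin that joins granulosa cells, fell by 1.12 ± 0.35 (adjusted p = 0.0346), with overlapping groups and a call lost without the 3 arrays (adjusted p = 0.136), with normexp (adjusted p = 0.079), with slide as a block and without any 1 of control 1, 2 and 4 and Ex3abERKO 2 and 4 (adjusted p up to 0.108). In the other direction, Rspo1, the secreted Wnt amplifier of ovarian fate, had levels of 4.05, 4.49, 4.16 and 3.86 in Ex3abERKO, against 2.26, 1.91, 2.18 and 2.19 in control, and rose by 2.00 ± 0.27 (4.00-fold, adjusted p = 0.000222). Kitl, the ligand granulosa cells offer to the oocyte, rose by 0.89 ± 0.29 (adjusted p = 0.0369), a call lost without any single array other than Ex3abERKO 2 and 4 (adjusted p up to 0.0857). Leaving out the 3 arrays gave 8 granulosa genes lower and 2 higher, and without any 1 of control 1, control 4, Ex3abERKO 1 and Ex3abERKO 3 there was 1 higher. In the fit over all arrays, 1 of the 8 ovarian markers set out above was called higher and 4 lower.

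In the wider family of inhibins, activins and transforming growth factors, 7 of 38 genes rose and 9 fell, with a median of -0.09. Bmp3, a family member that opposes other bone morphogenetic proteins, fell by 4.07 ± 0.64 (16.8-fold, adjusted p = 0.000602). The oocyte ligand Bmp15 fell by 2.37 ± 0.47 (adjusted p = 0.0025). Bmp2 fell by 1.24 ± 0.32 (adjusted p = 0.0125), a call lost without the 3 arrays (adjusted p = 0.0688), and Bmp6 rose by 1.46 ± 0.25 (adjusted p = 0.000915).

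Genes of cholesterol synthesis were called lower at most steps. Cholesterol is the substrate of every steroid hormone, and cells make it from acetyl-CoA under the control of SREBP-2. Of 29 measured genes of synthesis, uptake and their regulation, 24 fell and 1 rose, and the median difference was -1.59, with -1.62, -1.69 and -1.82 within slides 1, 2 and 4. The largest fall was in Hsd17b7, an enzyme that reduces a sterol keto group in cholesterol synthesis and also makes estradiol from estrone in the mouse corpus luteum. The upstream stretches of the 4 genes with the largest falls among those that had an entry are shown because members of the pathway fell together, and promoters of this class are known to carry SREBP sites near CCAAT boxes. They are RefSeq sequences of GRCm38.p6, the 250 bases before the gene start read 5′ to 3′ on the gene's strand, with matches to CCAAT or its reverse complement ATTGG, and to TCACCCCA, in capitals.
Hsd17b7 (chr1:169969206-169969455, minus strand): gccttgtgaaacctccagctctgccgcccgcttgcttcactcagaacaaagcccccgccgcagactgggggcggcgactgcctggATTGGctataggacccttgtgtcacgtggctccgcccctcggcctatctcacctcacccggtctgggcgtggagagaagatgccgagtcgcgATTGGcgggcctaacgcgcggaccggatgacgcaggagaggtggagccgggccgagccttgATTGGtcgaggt
Hmgcs1 (chr13:119690101-119690350, plus strand): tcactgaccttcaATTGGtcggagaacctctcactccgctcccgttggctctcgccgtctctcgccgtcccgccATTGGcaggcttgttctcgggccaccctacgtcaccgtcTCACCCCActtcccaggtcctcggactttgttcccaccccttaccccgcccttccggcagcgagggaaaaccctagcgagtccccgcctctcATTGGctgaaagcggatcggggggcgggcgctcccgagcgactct
Tm7sf2 (chr19:6067851-6068100, minus strand): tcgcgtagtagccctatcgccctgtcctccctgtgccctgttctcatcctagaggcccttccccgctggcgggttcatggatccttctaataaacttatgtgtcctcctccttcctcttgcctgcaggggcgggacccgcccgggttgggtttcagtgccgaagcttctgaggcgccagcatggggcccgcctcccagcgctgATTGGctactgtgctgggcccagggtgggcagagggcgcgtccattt
Idi1 (chr13:8885356-8885605, plus strand): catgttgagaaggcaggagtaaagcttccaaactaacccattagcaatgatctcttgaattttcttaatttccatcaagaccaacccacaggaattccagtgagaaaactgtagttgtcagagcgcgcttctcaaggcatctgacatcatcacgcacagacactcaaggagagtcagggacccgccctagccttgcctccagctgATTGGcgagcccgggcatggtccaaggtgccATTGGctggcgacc
The CCAAT letters occurred 3 times in Hsd17b7, 3 times in Hmgcs1, 1 time in Tm7sf2 and 2 times in Idi1, and TCACCCCA occurred 1 time, in Hmgcs1, 137 bases before the start. Over the 27025 genes with a promoter entry, whose windows also took in 50 bases after the start, 41.1% held the CCAAT letters and 1.77% held TCACCCCA on either strand. Only 17 of the 24 genes that fell had an entry, under 80%, so a check over the whole list is void and none is given.

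Hmgcs1, which makes the precursor of mevalonate, had levels of 3.68, 3.01, 3.71 and 2.68 in Ex3abERKO, against 6.05, 4.84, 6.10 and 6.31 in control, and fell by 2.56 ± 0.32 (5.88-fold, adjusted p = 0.000152). Control 2 was the lowest control array for Hmgcs1, and still above every Ex3abERKO array. In the isoprenoid steps Mvd, Idi1 and Fdps fell by 2.11, 2.25 and 2.65, and at the branch to sterols Fdft1 fell by 2.20 and Cyp51 fell by 1.93, with adjusted p-values from 0.000153 to 0.00107. The other probe of Fdft1 had a difference of 0.58 and was not called. Tm7sf2, a sterol reductase, fell by 2.32 ± 0.41 (adjusted p = 0.00117). Hsd17b7, read at chromosome 1, 169928936 to 169928995 (mm7), had levels of 0.37, -0.42, -1.09 and -0.08 in Ex3abERKO, against 4.68, 3.73, 2.72 and 3.95 in control, and fell by 4.07 ± 0.45 (16.9-fold, adjusted p = 6.63e-05).

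Regulators were measured too. Scap, the escort protein of SREBP, fell by 1.32 ± 0.24 (adjusted p = 0.00162). Srebf2, which encodes SREBP-2, fell by 0.51 ± 0.17 (adjusted p = 0.0399), a call lost without the 3 arrays (adjusted p = 0.101), with normexp (adjusted p = 0.2), with slide as a block and without any single array other than control 2 (adjusted p up to 0.127). Npc1, which moves cholesterol out of lysosomes, was the member that rose, with levels of 0.22, 0.15, 0.38 and 0.13 in Ex3abERKO, against -1.24, -1.03, -1.02 and -1.20 in control (1.35 ± 0.19, adjusted p = 0.000254). Without the 3 arrays 17 of the 29 genes were called lower, and leaving out single arrays gave 20 to 25.

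**Figure D3:**
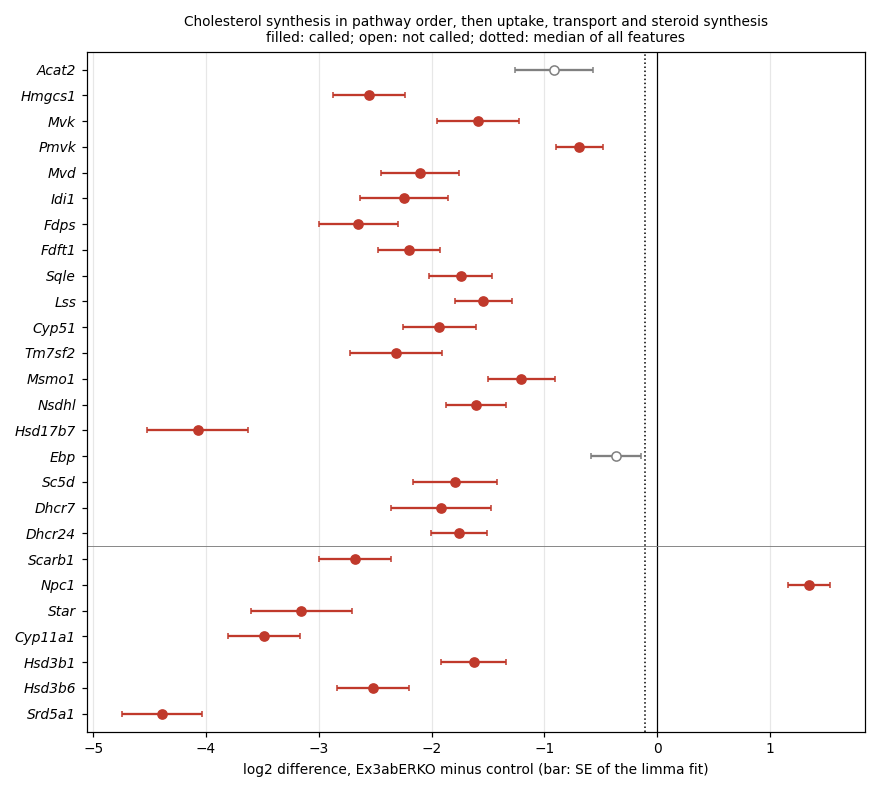
Log2 difference, Ex3abERKO minus control, for enzymes of cholesterol synthesis in pathway order (above the grey line) and for genes of uptake, transport and steroid synthesis (below it). Bars are the standard error of the limma fit, filled points were called and open points were not, and the dotted line is the median of all features at -0.11. All synthesis enzymes shown lie below that median, with Hsd17b7 lowest at -4.07, and Npc1 is the point above 0.

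Steroid synthesis genes were called lower at the first steps, and Cyp17a1 of the androgen step was not called. Of 26 measured genes, 12 fell and 3 rose, with a median of -0.72. Star, the protein that carries cholesterol into the mitochondrion, had levels of 2.42, 1.5, 2.02 and 1.75 in Ex3abERKO, against 5.84, 3.61, 4.92 and 5.94 in control, and fell by 3.15 ± 0.44 (8.90-fold, adjusted p = 0.000288). Cyp11a1, the side-chain cleavage enzyme, had levels of 3.68, 2.50, 2.76 and 2.50 in Ex3abERKO, against 6.65, 6.19, 6.22 and 6.30 in control, and fell by 3.48 ± 0.32 (11.2-fold, adjusted p = 1.85e-05). Neither gene's groups overlapped. The electron donors of Cyp11a1 fell with it, Fdx1 by 2.69 ± 0.37 (adjusted p = 0.000266) and Fdxr by 2.58 ± 0.29 (adjusted p = 8.22e-05), as did the HDL receptor gene Scarb1 (6.41-fold, adjusted p = 0.000108). The 3β-hydroxysteroid dehydrogenases Hsd3b1 and Hsd3b6 fell by 1.63 ± 0.29 (adjusted p = 0.0013) and 2.52 ± 0.32 (adjusted p = 0.000153). Srd5a1, the 5α-reductase, fell by 4.39 ± 0.36 (20.9-fold, adjusted p = 6.94e-06).

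Cyp17a1, which makes androgens in theca cells, had levels of 0.64, 0.58, 0.57 and 0.28 in Ex3abERKO, against 0.55, 2.16, 0.07 and 0.19 in control. The groups overlapped and no difference was called (-0.22 ± 0.38, adjusted p = 0.751). Cyp19a1, the aromatase that makes estradiol, had levels of 3.1, 2.51, 3.35 and 1.71 in Ex3abERKO, against 0.99, 3.56, 1.01 and 0.70 in control. Control 2 was the highest of the 8 arrays and the other control arrays lay below every Ex3abERKO array, and the difference of 1.10 ± 0.60 was not called (adjusted p = 0.216). Hsd17b3, which makes testosterone in the testis, had levels of -4.28, -2.01, -1.70 and -2.19 in Ex3abERKO, against -4.34, -4.51, -4.43 and -4.40 in control, and was not called either (1.88 ± 0.80, adjusted p = 0.112).

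Enzymes that inactivate or convert steroids also moved. Sult1e1, the estrogen sulfotransferase, had levels of -0.15, 1.66, 2.53 and 0.84 in Ex3abERKO, against -3.1, -3.78, -4.24 and -4.61 in control, and rose by 5.15 ± 1.23 (35.6-fold, adjusted p = 0.00797), a call lost without the 3 arrays (adjusted p = 0.0655). For glucocorticoids, Hsd11b1, which regenerates the active hormone, rose by 3.05 ± 0.60 (adjusted p = 0.00243), while Hsd11b2, which inactivates it, fell by 1.10 ± 0.27 (adjusted p = 0.00931). Of 12 genes of glucocorticoid action 3 rose and 4 fell, with a median of -0.41. Both Tsc22d3 and Fkbp5 are induced by glucocorticoids, and they went opposite ways, Tsc22d3 rising by 1.24 ± 0.26 (adjusted p = 0.00381) and Fkbp5 with a difference of -1.98 ± 0.18 (adjusted p = 1.93e-05).

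Among 15 theca and Leydig cell genes, 7 fell and 2 rose, and among 15 luteal genes 8 fell. Without any single array other than Ex3abERKO 1, the theca and Leydig genes called higher numbered 1. Of the luteal genes 0 were called higher by limma, and 0 were higher at an unadjusted p under 0.05. The luteal median was -2.50, and -2.44, -1.83 and -2.07 within slides 1, 2 and 4, and it was -1.59 without control 1. Prlr, the prolactin receptor that sustains the corpus luteum in rodents, had levels of 1.33, 0.77, 2.25 and 0.83 in Ex3abERKO, against 3.86, 3.42, 4.00 and 4.26 in control, and fell by 2.59 ± 0.31 (6.02-fold, adjusted p = 0.000122). The luteal list shares Prlr, Lhcgr, Star, Cyp11a1, Scarb1, Hsd17b7 and Hsd3b1 with the lists above, so its count is not a separate observation. Insl3, a hormone of theca and Leydig cells, had levels of 1.89, 4.49, 2.63 and 3.98 in Ex3abERKO, against -0.26, -0.51, -0.02 and -0.16 in control. It rose by 3.48 ± 1.18 (adjusted p = 0.0471), a call lost without the 3 arrays (adjusted p = 0.201), with slide as a block (adjusted p = 0.0659), with normexp (adjusted p = 0.069) and without any single array other than Ex3abERKO 1 (adjusted p up to 0.123).

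Oocyte transcripts were lower as a group. Of 29 measured, 20 fell and none rose, and every one of the 29 differences was below 0, with a median of -1.86 and within-slide medians of -1.10, -1.98 and -1.96. Zp3, a protein of the zona pellucida around the egg, had levels of -0.94, -0.65, -0.92 and -0.60 in Ex3abERKO, against 1.09, 2.28, 1.95 and 1.65 in control, and fell by 2.52 ± 0.46 (5.74-fold, adjusted p = 0.00152). The maternal-effect genes Zar1 and Khdc3 fell by 2.69 ± 0.51 (adjusted p = 0.00184) and 2.43 ± 0.44 (adjusted p = 0.0014). The 4 Ex3abERKO arrays had nearly equal medians over the list, while control 1 was the lowest control array. Leaving out the 3 arrays gave 12 lower.

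Genes of ovulation and cumulus expansion were called 4 higher and 4 lower of 19, a median of -0.15, and 2 were higher with normexp. The surge-induced gene Tnfaip6, which organises the cumulus matrix, rose by 2.40 ± 0.40 (5.28-fold, adjusted p = 0.000873), though with normexp its difference was 1.11 (adjusted p = 0.16). Ptgs2, the prostaglandin synthase of ovulation, had levels of -3.57, -4.21, -3.51 and -5.15 in Ex3abERKO, against -8.81 to -6.92 in control, where this probe stayed below the background limit on all 4 arrays. It was called higher (adjusted p = 0.00096) but not with normexp (0.40, adjusted p = 0.65), and no fold is given because another probe of the gene was above background in control. Runx2, a regulator of luteinizing granulosa cells, fell by 2.16 ± 0.48 (adjusted p = 0.00536), a call lost without the 3 arrays (adjusted p = 0.053). Among 19 prostaglandin genes 9 rose and 1 fell, with a median of 0.70. Hpgds and Ptgis, the synthases of prostaglandin D2 in blood cells and of prostacyclin, rose by 2.42 ± 0.32 (adjusted p = 0.000197) and 1.79 ± 0.31 (adjusted p = 0.00116).

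Macrophage, lymphocyte and complement genes rose in large numbers. For the macrophage, lipid-laden macrophage, lymphocyte, class II and complement lists limma called 0 genes lower, and 0 were lower at an unadjusted p under 0.05. Of 20 macrophage genes 17 rose and none fell, with a median of 1.86, and within-slide medians of 2.14, 1.41 and 1.83. The summed signal of the list was 8.99 to 9.22 on the log2 scale in Ex3abERKO, against 7.59 to 8.14 in control. Cd68, a lysosomal marker of macrophages, had levels of 4.13, 4.26, 3.66 and 4.52 in Ex3abERKO, against 1.95, 1.57, 0.73 and 1.49 in control, and rose by 2.70 ± 0.38 (6.52-fold, adjusted p = 0.000302). Adgre1, an adhesion receptor on macrophages, rose by 1.99 ± 0.33 (adjusted p = 0.000828) and Csf1r, the growth factor receptor of the lineage, by 1.48 ± 0.36 (adjusted p = 0.00919). The other probes of Csf1r had differences of 0.10 and 0.89, were not called, and the call was lost with the mean of its probes. All 4 defining macrophage markers were well above background on all 8 arrays.

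Genes that macrophages express when loaded with lipid made up a list of which 13 of 16 rose and none fell, with a median of 2.24. Trem2, a lipid-sensing receptor, had levels of 5.92, 5.77, 6.32 and 6.28 in Ex3abERKO, against 3.60, 3.37, 2.97 and 3.47 in control, and rose by 2.72 ± 0.37 (6.59-fold, adjusted p = 0.000235). Gpnmb, a glycoprotein of lysosome-rich macrophages, had levels of 5.84, 5.94, 6.09 and 6.35 in Ex3abERKO, against 3.41, 2.59, 1.68 and 2.46 in control, and rose by 3.52 ± 0.62 (11.5-fold, adjusted p = 0.00113). The Ex3abERKO arrays spanned under 1 log2 unit for both genes. Osteopontin Spp1 rose 12.4-fold (adjusted p = 0.00156), the elastase Mmp12 11.1-fold (adjusted p = 0.00116), the fatty acid carrier Fabp5 9.68-fold (adjusted p = 0.000275) and the scavenger receptor Cd36 8.50-fold (adjusted p = 0.000275).

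Lymphocyte and plasma cell genes rose in 17 of 24 cases and fell in none, with a median of 1.87, and 2.01, 0.91 and 3.00 within slides 1, 2 and 4. With normexp 11 rose, with a median of 1.16. Jchain, which links secreted antibodies, had levels of 5.73, 5.53, 3.88 and 5.58 in Ex3abERKO, against 0.32, -1.02, -1.79 and -0.67 in control, and rose by 5.97 ± 0.88 (62.8-fold, adjusted p = 0.000375). The B cell factors Pou2af1 and Mzb1 rose 27.5-fold (adjusted p = 0.000153) and 17.0-fold (adjusted p = 0.000154). Ex3abERKO 3 was the lowest Ex3abERKO array for these genes and still above every control array. Ms4a1, which encodes CD20, rose by 3.89 ± 0.63 (adjusted p = 0.000697), Cxcr5, the follicular homing receptor, by 3.67 ± 0.66 (adjusted p = 0.00139, but 0.061 with normexp) and the T cell gene Cd3d by 2.12 ± 0.44 (adjusted p = 0.00356). The summed signal ran from 5.38 to 7.31 in Ex3abERKO, against 3.00 to 3.70 in control.

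**Figure D4:**
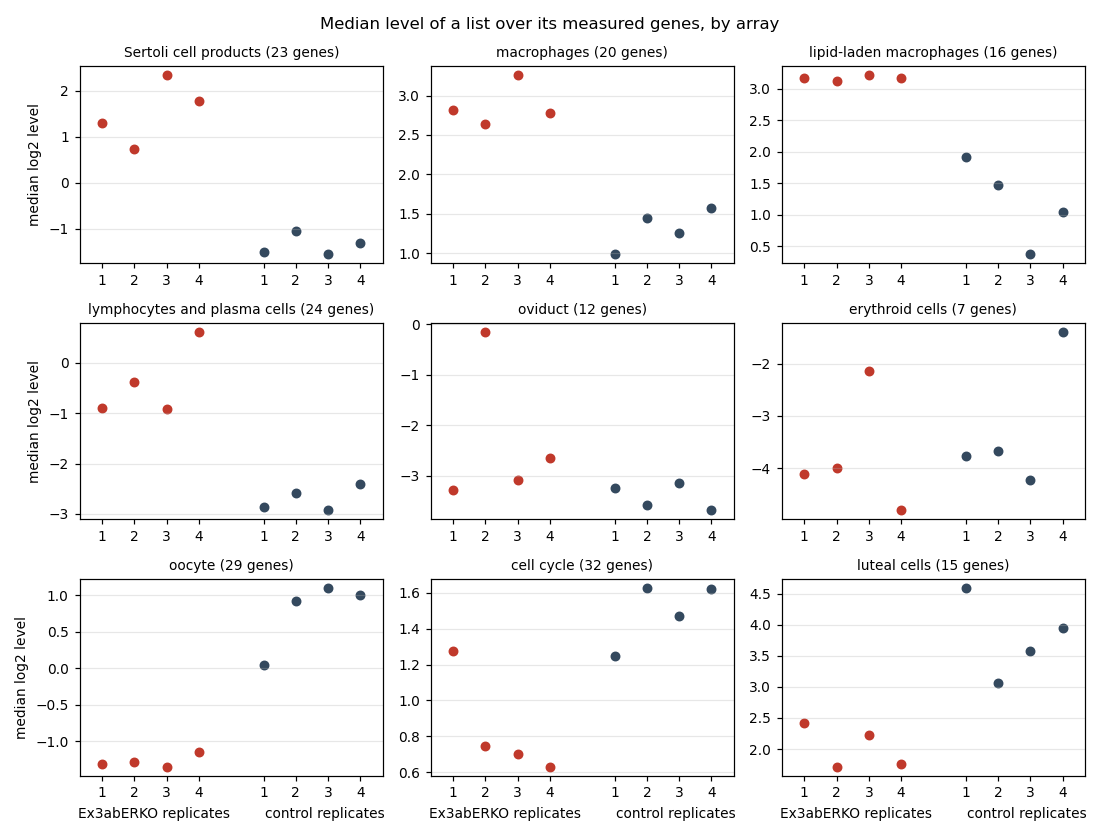
Median log2 level over the measured genes of 9 lists on each array, with the 4 Ex3abERKO replicates in red at the left and the 4 control replicates at the right of each panel, each panel on its own scale. The groups separate for Sertoli products, macrophages, lipid-laden macrophages, lymphocytes, oocytes and luteal cells, while Ex3abERKO 2 stands alone in oviduct genes and control 4 is highest in erythroid genes.

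Chemokines and homing molecules were measured too. Of 25 chemokine and homing genes 8 rose and 2 fell. Ccl19, which guides lymphocytes into lymphoid tissue, had levels of 3.09, 3.60, 3.35 and 3.86 in Ex3abERKO, against 0.25, -0.14, 0.28 and 1.08 in control, and rose by 3.11 ± 0.31 (8.61-fold, adjusted p = 3.25e-05). Glycam1, a mucin of the vessels through which lymphocytes enter lymph nodes, had levels of -1.20, -1.61, -1.40 and -0.25 in Ex3abERKO, against -7.40 to -6.13 in control, where 2 of 4 arrays were well above background (difference 5.59 ± 0.43, adjusted p = 4.18e-06). Complement genes rose in 14 of 23 cases and fell in none. C3 had levels of 7.94, 8.16, 8.07 and 8.05 in Ex3abERKO, against 3.55, 3.13, 3.81 and 4.29 in control, C7 rose 50.8-fold (adjusted p = 0.00183), the regulator Cfi 9.10-fold (adjusted p = 0.00345) and C4b 8.88-fold (adjusted p = 0.0003). Class II antigen presentation genes had 4 of 12 higher and none lower, with all 12 differences above 0, yet a within-slide median of -0.41 on slide 2 against 1.04 and 1.43 on slides 1 and 4. Their number called higher was 7 without control 4 and 2 with normexp, and their median of 0.78 was 0.49 without control 1. Interferon response genes had 0 of 23 called higher by limma (0 at an unadjusted p under 0.05) and 2 lower, but 5 lower without control 1 and 1 without control 3. The interferon median was -0.34, with within-slide medians of 0.59, -0.72 and -0.71 on slides 1, 2 and 4. Bst2 fell by 1.44 ± 0.22 (adjusted p = 0.000533).

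Endothelial genes had 7 of 18 lower and 3 higher, and angiogenic factors 4 of 12 lower and 2 higher. Vegfa, the main angiogenic growth factor of the corpus luteum, had levels of -0.63, -0.70, -0.39 and -1.05 in Ex3abERKO, against 1.96, 1.55, 1.58 and 2.07 in control, and fell by 2.48 ± 0.27 (5.59-fold, adjusted p = 5.8e-05). The apelin receptor gene Aplnr fell by 2.10 ± 0.26 (adjusted p = 0.000139) and the nitric oxide synthase Nos3 fell by 1.36 ± 0.25 (adjusted p = 0.00159). Lyve1, a marker of lymphatic vessels and of some macrophages, rose by 2.26 ± 0.37 (adjusted p = 0.000739). The clotting factor gene Vwf rose by 1.29 ± 0.35 (adjusted p = 0.0165), a call lost without control 1 (adjusted p = 0.0561) and with the mean of all its probes. In the fit without the 3 arrays 3 endothelial genes were called in each direction, and without control 1 there were 4 lower. Macrophage genes were higher on the same arrays, as given above, and their part in the values of genes that both cell types express was not tested.

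Of 22 collagens 8 rose and 1 fell, with a median of 0.69 that was 0.41 without Ex3abERKO 1. With normexp, and without the 3 arrays, 5 were called higher, and with array weights 13. Col8a1, a short-chain collagen of vessel walls, had levels of 4.43, 2.81, 3.30 and 3.1 in Ex3abERKO, against -0.24, 0.34, 0.29 and 0.80 in control, and rose by 3.11 ± 0.48 (8.63-fold, adjusted p = 0.000485). The basement membrane collagens Col15a1 and Col4a6 rose by 1.95 ± 0.44 (adjusted p = 0.00551) and 1.89 ± 0.30 (adjusted p = 0.000622). Among 25 other stromal matrix genes 5 rose and 2 fell (20% and 8%, against 10.6% and 11.7% over all features). Those that rose included the proteoglycans Fmod (2.57 ± 0.33, adjusted p = 0.000164) and Dcn (1.38 ± 0.27, adjusted p = 0.0026). Matrix proteases and their inhibitors had 10 of 26 higher and 1 lower, with 6 higher under normexp and 5 without the 3 arrays. Beside Mmp12, Adam8 rose 6.94-fold (adjusted p = 0.000235), Mmp9 5.05-fold (adjusted p = 0.00197, but 0.074 with normexp), and Mmp3 8.31-fold (adjusted p = 0.0247), the last call being lost without the 3 arrays (adjusted p = 0.0591), with normexp (adjusted p = 0.17), with slide as a block and without any 1 of control 1 and 2 and Ex3abERKO 1 and 2 (adjusted p up to 0.0767). The membrane-bound Mmp15 fell by 1.81 ± 0.33 (adjusted p = 0.00156).

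Of 26 tight junction genes 11 rose and 1 fell, with a median of 0.69. With normexp 7 rose, with a median of 0.32. Cldn10 had levels of 1.13, 1.68, 1.54 and 0.98 in Ex3abERKO, against -1.79, -1.76, -1.38 and -0.93 in control, and rose by 2.80 ± 0.39 (6.96-fold, adjusted p = 0.000271). Cgn, the junction scaffold cingulin, rose by 2.66 ± 0.32 (adjusted p = 0.000133), Cldn7 by 2.41 ± 0.51 (adjusted p = 0.00372) and Cldn4 by 2.27 ± 0.44 (adjusted p = 0.00233, but 0.64 with normexp). Cldn18 was the member that fell. It was not well above background on any Ex3abERKO array, against levels of -1.46, -4.12, -3.02 and -1.41 in control, at least 17.2-fold lower (adjusted p = 0.000212).

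Markers of the ovarian surface epithelium had 5 of 15 higher and 1 lower. Cdh1, the cadherin of epithelia, rose by 1.87 ± 0.45 (adjusted p = 0.00835), Epcam by 1.78 ± 0.51 (adjusted p = 0.0211) and the keratin Krt7 by 1.76 ± 0.46 (adjusted p = 0.014). The calls of Epcam (adjusted p = 0.107) and Krt7 (adjusted p = 0.0768) were lost without the 3 arrays, and that of Epcam also without any 1 of control 1 and Ex3abERKO 2 and 3 (adjusted p up to 0.0633) and with normexp (adjusted p = 0.051). The fit without the 3 arrays called 1 surface epithelium gene in each direction, and 3 were higher with normexp, without control 1 and without Ex3abERKO 2. Oviduct genes had 3 of 12 higher, and 1 of 12 with normexp and without any 1 of control 1, control 2 and Ex3abERKO 2. Foxj1, the master factor of motile cilia, had levels of -3.96, 1.95, -3.79 and -2.22 in Ex3abERKO, against -7.70, -7.07, -5.04 and -5.71 in control, where 2 of 4 arrays were well above background. Its difference was 4.37 ± 1.30 (adjusted p = 0.0255), and the call was lost without any 1 of control 1 and 2 and Ex3abERKO 2 (adjusted p up to 0.0729), with slide as a block (adjusted p = 0.0584) and with normexp (adjusted p = 0.33). The summed oviduct signal ranged from 1.87 to 6.02 in Ex3abERKO, against 1.39 to 1.74 in control, and its part in the epithelial values was not tested.

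In Wnt signalling 11 of 44 genes rose and 4 fell, with a median of 0.35 (-0.01 with normexp, 0.21 without control 4 or without Ex3abERKO 3). Sfrp1, a secreted Wnt antagonist, had levels of 3.74, 3.36, 2.76 and 3.34 in Ex3abERKO, against 0.50, 0.62, -0.18 and 1.03 in control, and rose by 2.81 ± 0.52 (7.0-fold, adjusted p = 0.00164). The ligand Wnt10b fell by 3.26 ± 0.61 (9.58-fold, adjusted p = 0.0017) and Rspo2, which oocytes secrete, fell by 2.15 ± 0.50 (adjusted p = 0.00707), opposite to Rspo1. The fit without the 3 arrays called 6 Wnt genes higher and 3 lower, normexp gave 6 and 2, and 7 were higher without control 1 or without control 3.

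Hedgehog genes had 3 of 14 higher and 2 lower (21.4% and 14.3%, against 10.6% and 11.7% over all features). The number higher was 1 under normexp, without the 3 arrays, and without any 1 of control 1, control 3, Ex3abERKO 1 and Ex3abERKO 2. Beside the ligand Ihh, its target and decoy receptor Hhip had levels of -6.39, -5.61, -7.07 and -7.49 in Ex3abERKO, well above background on 2 of 4 arrays, against -2.93, -1.76, -2.80 and -2.81 in control. Hhip fell by 4.07 ± 0.52 (16.8-fold, adjusted p = 0.000154), and the coreceptor gene Gas1 rose by 1.88 ± 0.34 (adjusted p = 0.00154). Notch genes had 6 of 15 lower and 2 higher. The target genes Hey2 and Heyl fell by 2.36 ± 0.32 (adjusted p = 0.000221) and 1.60 ± 0.35 (adjusted p = 0.00501). Single arrays moved the Notch genes called lower between 2 (without control 1) and 6, and without the 3 arrays or with normexp there were 3.

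Retinoic acid genes had 3 of 15 higher and 1 lower (20% and 6.67%, against 10.6% and 11.7% over all features). Cyp26a1, the enzyme that degrades retinoic acid, had levels of -2.34, -2.35, -1.23 and -1.92 in Ex3abERKO, against -5.21, -5.37, -4.99 and -5.39 in control, and rose by 3.28 ± 0.31 (9.70-fold, adjusted p = 2.29e-05, but 0.061 with normexp). Aldh1a3, which makes retinoic acid, rose by 2.11 ± 0.33 (adjusted p = 0.000531). Insulin-like growth factor genes had 6 of 16 higher and 2 lower. Igf1, which supports follicle growth in mice, rose by 2.16 ± 0.38 (4.46-fold, adjusted p = 0.00118). The binding protein gene Igfbp2 fell by 2.26 ± 0.35 (adjusted p = 0.000515), and Stc1, which encodes stanniocalcin, an inhibitor of a protease that frees IGF, fell by 4.56 ± 0.76 (23.6-fold, adjusted p = 0.000828). Connexins had 5 of 13 higher and 1 lower, with a median of 0.29 that was -0.32 with normexp. Normexp gave 1 connexin higher and leaving out the 3 arrays gave 3. Gjb2 differed by 2.13 ± 0.58 (adjusted p = 0.0174), a call lost without control 3 (adjusted p = 0.0564) and with normexp (adjusted p = 0.54), and Gja6 was at least 4.46-fold higher than in control, where it was not well above background (adjusted p = 0.000968), with a difference of 0.02 under normexp.

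Cell division genes had 14 of 32 lower and 1 higher, with a median of -0.76. Top2a and Bub1, of chromosome untangling and of the mitotic checkpoint, fell by 1.79 ± 0.46 (adjusted p = 0.0127) and 1.67 ± 0.39 (adjusted p = 0.00701). These calls rested on few arrays: Ex3abERKO 1 had the highest median of its group, limma called 0 of the 32 lower without the 3 arrays, where Top2a had an adjusted p of 0.0775 and Bub1 one of 0.0568, and 5 to 16 were called lower when single arrays were left out, with 5 without Ex3abERKO 2, and 8 with normexp. Cdkn1c, which encodes the cell cycle inhibitor p57, was the member that rose, with levels of 4.60, 4.74, 3.62 and 5.68 in Ex3abERKO, against 1.05, 1.78, 0.08 and 1.27 in control (3.62 ± 0.60, 12.3-fold, adjusted p = 0.000851). Oxidative phosphorylation genes had 10 of 26 called lower and 0 called higher by limma (0 higher at an unadjusted p under 0.05), with a median of -0.33. Cyc1, of complex III, fell by 1.09 ± 0.20 (adjusted p = 0.0014). Without the 3 arrays 3 of the 26 were called lower, with normexp 3, with array weights 18, and 5 (without control 1) to 15 (without Ex3abERKO 3) when single arrays were left out.

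Lipid droplet genes split by member. Of 20 adipocyte and lipid droplet genes 5 rose and 4 fell, with 2 higher without the 3 arrays and 3 without any 1 of control 2, control 4, Ex3abERKO 2 and Ex3abERKO 4. Cidea, a protein that fuses lipid droplets, had levels of 2.49, 2.16, 3.85 and 3.14 in Ex3abERKO, against -3.57, -3.5, -3.51 and -3.42 in control, and rose by 6.41 ± 0.58 (85.1-fold, adjusted p = 1.67e-05). Plin4 and Plin5, droplet coat proteins, went the other way. Plin4 fell by 3.48 ± 0.38 (11.2-fold, adjusted p = 6.23e-05), and Plin5 was 10.9-fold lower (adjusted p = 0.000668). Fabp4, a fatty acid carrier of adipocytes and macrophages, rose by 1.94 ± 0.47 (adjusted p = 0.00898). The 3 defining adipocyte markers Adipoq, Plin1 and Cidec were well above background on all 8 arrays and were not called (adjusted p = 0.669, 0.145 and 0.529).

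The 15 largest increases among named genes that did not overlap between groups mixed testis, epithelial and antibody transcripts. Besides Etd, Cidea, Jchain and Lcn2, they held the testis transcripts 4933402E13Rik and 1700018G05Rik. The first had levels of -0.24, -0.89, 2.39 and 0.64 in Ex3abERKO and was not well above background on any control array, at least 155-fold higher (adjusted p = 2.84e-06). The transcript 1700018G05Rik had levels of 0.40, -0.14, 3.03 and 1.39 in Ex3abERKO, against -4.84, -6.69, -5.0 and -5.04 in control (94.7-fold, adjusted p = 0.000154). Both were highest in Ex3abERKO 3, as were Etd, Cst9 and Cldn11. Against control arrays without signal well above background, Lpar3, a receptor for lysophosphatidic acid, was at least 68.7-fold higher (adjusted p = 3.55e-07), and the protease inhibitor gene Spink8 at least 69.6-fold higher (adjusted p = 0.000662, but 0.077 with normexp).

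Among the 15 were 3 immunoglobulin segments, and since such segments are closely alike, their probes may read others of the family. Iglv1 had levels of 5.81, 4.16, 1.70 and 5.36 in Ex3abERKO, against -2.19, -1.56, -2.40 and -0.96 in control (65.4-fold, adjusted p = 0.000618). Igkv3-12 rose 57.7-fold (adjusted p = 0.00037), and Igkv6-14 was at least 32.5-fold higher than in control, where it was not well above background (adjusted p = 0.000153). Rarres1, a retinoid-responsive gene, rose 58.1-fold (adjusted p = 0.000868). Vsig1, a junctional adhesion protein, had levels of -2.67 to 0.03 in Ex3abERKO, against -8.88 to -5.85 in control, where 1 of 4 arrays was well above background, so no fold is given (adjusted p = 7.16e-05). The lysosomal channel gene Mcoln3 rose 57.3-fold (adjusted p = 0.000803), with 2 of 4 control arrays well above background. The other probe of Mcoln3 was also called higher, but with a smaller difference, 1.27 against 5.84. Cyp2a5, a xenobiotic-metabolising enzyme, had levels of -2.90, 4.68, -4.37 and -1.62 in Ex3abERKO, against -8.88 to -6.87 in control, where this probe stayed below the background limit throughout while another probe of the gene did not, so no fold is given. Its call (adjusted p = 0.0367) was lost without Ex3abERKO 2, the array high in oviduct genes (adjusted p = 0.115), and also without any 1 control array or Ex3abERKO 4, without the 3 arrays (adjusted p = 0.0579) and with normexp (adjusted p = 0.3).

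Among the 15 largest decreases, the oxytocin receptor gene Oxtr had levels of -4.81, -5.23, -5.87 and -6.91 in Ex3abERKO, well above background on 3 of 4 arrays, against -0.74, -2.63, -0.81 and -0.84 in control (21.8-fold lower, adjusted p = 5.8e-05). Thbs4, a matrix thrombospondin, had levels of -0.69, -2.50, -3.14 and -2.75 in Ex3abERKO, against 2.46, 3.29, 2.44 and 2.67 in control (31.7-fold lower, adjusted p = 5.8e-05). Bpifb5, of a family of lipid-binding secreted proteins, had levels of -4.17, -2.71, -4.08 and -2.83 in Ex3abERKO, against 2.11, 1.94, 1.30 and 1.30 in control (34.6-fold lower, adjusted p = 2.84e-06). Its relative Bpifb4 was 65.4-fold lower (adjusted p = 5.7e-05), measured on 3 Ex3abERKO arrays, 2 of them well above background. The sugar transporter relative Slc35f1 had levels of -8.55 to -6.16 in Ex3abERKO, with 1 of 4 arrays well above background, against -2.03 to -1.49 in control (adjusted p = 1.15e-05).

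Mpped2, Oca2 and Pik3c2g were 25.5-fold, 23.7-fold and 21.8-fold lower, with adjusted p-values of 0.000163, 5.62e-05 and 0.000324, but the other probe of Pik3c2g had a difference of -0.01 and was not called. Genes with no Ex3abERKO array well above background get a bound: D630023F18Rik was at least 20-fold lower (adjusted p = 7.36e-05), Tmem72 at least 10.1-fold (adjusted p = 8.1e-05), the olfactory receptor gene Olfr330 at least 9.90-fold (adjusted p = 0.000153) and the sodium-proton exchanger gene Slc9a3 at least 6.87-fold (adjusted p = 9.47e-06). Stc1, Cst8 and Cldn18, described above, complete the 15. Ahsg, a fetuin that the liver makes in bulk, had levels of 2.44, 3.13, 3.57 and 2.17 in Ex3abERKO, against -0.13, -1.33, -1.33 and -1.33 in control (14.5-fold higher, adjusted p = 0.00452), while the other defining liver markers Alb and Apoa1 were not called (adjusted p = 0.812 and 0.0764). The summed signal of 8 liver genes ran from 2.27 to 3.59 in Ex3abERKO, against -0.41 to 0.51 in control, and its part in the value of Ahsg was not tested.

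The ovary without both receptors was then set against the ovaries without 1. Against Ex3aERKO, 1889 features (7.73%) were called, 1076 higher and 813 lower in Ex3abERKO, and against Ex3bERKO 4060 (16.6%) were called, 2010 higher and 2050 lower. These comparisons share the Ex3abERKO arrays. Ex3bERKO 1 and 4 lay on slide 3, which held no Ex3abERKO array, and Ex3abERKO 1 and 2 on slide 2, which held no Ex3bERKO array. Slide and genotype are therefore partly mixed in the comparison with Ex3bERKO and in its list counts below. With slide as a block 2145 features were called against Ex3bERKO and 1891 against Ex3aERKO. An interaction contrast, the difference between Ex3abERKO and Ex3aERKO minus that between Ex3bERKO and control, asked whether the loss of ERβ went with a different change where ERα was also lost, and called 869 features (3.55%), 445 above 0 (1.82%) and 424 below 0 (1.73%). It called 252 features without the 3 arrays and lay between 504 (without control 4) and 1329 (without Ex3abERKO 3) when single Ex3abERKO or control arrays were left out.

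Etd, Cst9, Defb36 and Dmrt1 were higher in the ovary without both receptors than in either single knockout. Etd averaged 1.83 ± 1.29 in Ex3abERKO, -3.68 ± 0.54 in Ex3aERKO, -4.26 ± 0.71 in Ex3bERKO and -4.18 ± 0.17 in control (SD, n = 4 each). Its interaction was 5.59 ± 0.73 (adjusted p = 0.00158). Cst9 averaged 2.75 ± 1.21 in Ex3abERKO, -1.62 ± 0.46 in Ex3aERKO, -2.29 ± 0.31 in Ex3bERKO and -1.67 ± 0.79 in control, with an interaction of 5.0 ± 0.72 (adjusted p = 0.00226). The cystatin-related Cstdc1 had an interaction of 5.71 ± 0.79 (adjusted p = 0.00185), Igkv3-12 of 5.52 ± 1.21 (adjusted p = 0.0226) and Defb36 of 3.06 ± 0.61 (adjusted p = 0.0141). Dmrt1 did not pass the background limit on any single-knockout array, and was higher in Ex3abERKO than in Ex3aERKO (adjusted p = 0.000965) and than in Ex3bERKO (adjusted p = 0.00132).

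Sox9 averaged 0.52 ± 0.59 in Ex3abERKO, -1.34 ± 0.72 in Ex3aERKO, -2.01 ± 0.55 in Ex3bERKO and -2.44 ± 0.32 in control (SD, n = 4 each), higher in Ex3abERKO than in Ex3aERKO by 1.86 (adjusted p = 0.00892) and than in Ex3bERKO by 2.53 (adjusted p = 0.00079). Its interaction of 1.42 ± 0.53 was not called (adjusted p = 0.18). Lhcgr and Nr5a2 were lower than in both single knockouts, Lhcgr lower by 3.38 than in Ex3aERKO (adjusted p = 0.00352) and by 3.35 than in Ex3bERKO (adjusted p = 0.00168), and Nr5a2 by 2.63 (adjusted p = 0.00116) and 2.47 (adjusted p = 0.000804). Klhl31 averaged -4.56 ± 0.72 in Ex3abERKO, 0.58 ± 1.23 in Ex3aERKO, 0.48 ± 0.82 in Ex3bERKO and -0.19 ± 0.37 in control, with an interaction of -5.82 ± 0.78 (adjusted p = 0.00159). Among 28 granulosa genes, 12 were lower in Ex3abERKO than in Ex3aERKO, and 13 were lower and 1 higher than in Ex3bERKO. The shares over all features were 3.33% lower against Ex3aERKO, and 8.39% lower and 8.22% higher against Ex3bERKO.

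**Figure D5:**
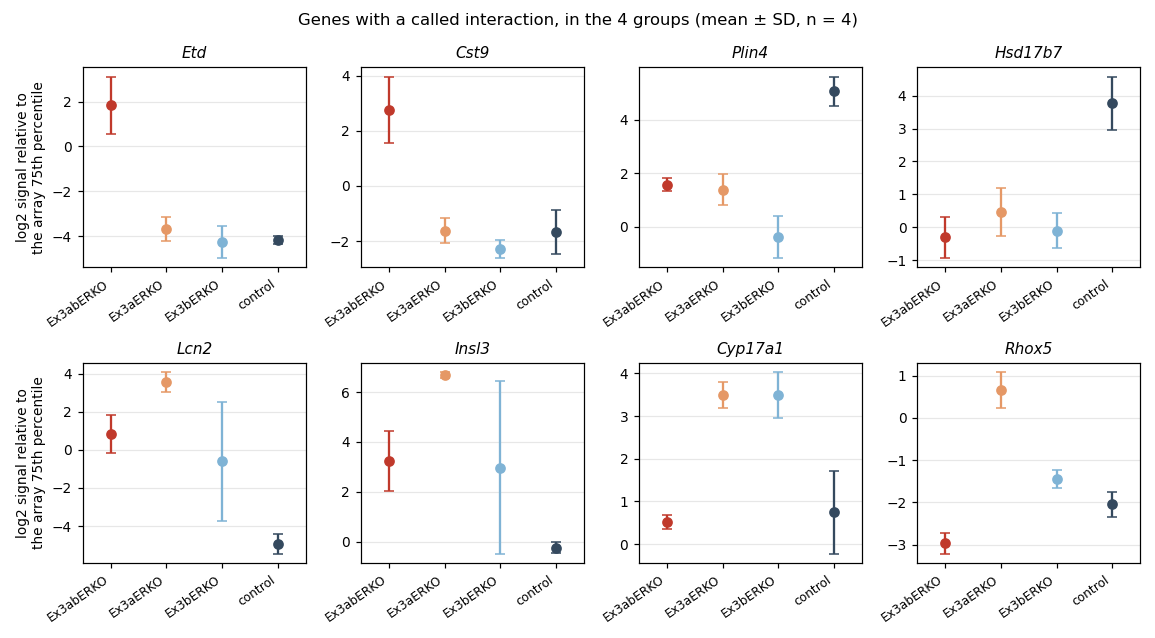
Mean ± SD (n = 4) of the log2 level of 8 genes with a called interaction, in the order Ex3abERKO, Ex3aERKO, Ex3bERKO and control, each panel on its own scale. Etd and Cst9 are high in Ex3abERKO alone, Plin4 and Hsd17b7 are high in control alone, Lcn2 and Insl3 are highest in Ex3aERKO, with a wide spread in Ex3bERKO, and Cyp17a1 is high in both single knockouts.

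Other genes with an interaction above 0 had their highest mean in control. Plin4 averaged 1.58 ± 0.24 in Ex3abERKO, 1.38 ± 0.57 in Ex3aERKO, -0.37 ± 0.78 in Ex3bERKO and 5.06 ± 0.54 in control, with an interaction of 5.62 ± 0.53 (adjusted p = 0.000211). Hsd17b7 averaged -0.30 ± 0.62 in Ex3abERKO, 0.47 ± 0.74 in Ex3aERKO, -0.11 ± 0.53 in Ex3bERKO and 3.77 ± 0.81 in control, with an interaction of 3.1 ± 0.64 (adjusted p = 0.0156). Wnt10b, Runx2, the metallopeptidase gene Mmel1 and Ssu2 had interactions of 5.76 ± 0.86 (adjusted p = 0.0026), 5.37 ± 0.68 (adjusted p = 0.00128), 6.46 ± 1.02 (adjusted p = 0.00366) and 5.41 ± 0.80 (adjusted p = 0.00249). Control 2 was far below the other control arrays for Runx2, Mmel1 and Ssu2, with levels of 1.33, -0.29 and 0.28.

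A further set had interactions below 0, several with the highest mean in Ex3aERKO. Lcn2 averaged 0.84 ± 1.00 in Ex3abERKO, 3.55 ± 0.51 in Ex3aERKO, -0.61 ± 3.12 in Ex3bERKO and -4.93 ± 0.52 in control, with an interaction of -7.03 ± 1.53 (adjusted p = 0.0216). Insl3 averaged 3.25 ± 1.20 in Ex3abERKO, 6.67 ± 0.12 in Ex3aERKO, 2.97 ± 3.45 in Ex3bERKO and -0.24 ± 0.20 in control, with an interaction of -6.63 ± 1.67 (adjusted p = 0.0419). For both, and for Ptgds (-5.57 ± 1.40, adjusted p = 0.041), the Ex3bERKO arrays were widely spread and neither single-knockout comparison with Ex3abERKO was called. Cyp17a1 averaged 0.52 ± 0.16 in Ex3abERKO, 3.5 ± 0.31 in Ex3aERKO, 3.5 ± 0.53 in Ex3bERKO and 0.74 ± 0.96 in control, lower in Ex3abERKO than in each single knockout by 2.98 (adjusted p = 0.000749 and 0.000392). Rhox5 averaged -2.96 ± 0.25 in Ex3abERKO, 0.66 ± 0.42 in Ex3aERKO, -1.44 ± 0.21 in Ex3bERKO and -2.04 ± 0.30 in control, with an interaction of -4.22 ± 0.31 (adjusted p = 2.67e-05). Hsd17b3 (-8.17 ± 1.14, adjusted p = 0.00193), C1qtnf3 (-6.10 ± 0.93, adjusted p = 0.00299), Cyp4f15 (-5.67 ± 0.57, adjusted p = 0.000235), and Eppin (-4.76 ± 0.56, adjusted p = 0.000835) also had interactions below 0, as did Oca2 (-4.60 ± 0.68, adjusted p = 0.0025) and Bpifb5 (-4.55 ± 0.51, adjusted p = 0.000555).

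Over all features 4.4% were higher and 3.33% lower than in Ex3aERKO, and 8.22% were higher and 8.39% lower than in Ex3bERKO. Of 29 oocyte genes, 0 were called by limma in Ex3abERKO against Ex3aERKO, with a median difference of 0.61, while 24 were called lower against Ex3bERKO, with a median of -2.54. Zp3 averaged -0.78 ± 0.17 in Ex3abERKO, -1.39 ± 1.10 in Ex3aERKO, 2.45 ± 0.69 in Ex3bERKO and 1.74 ± 0.50 in control. Of 20 macrophage genes, 3 were higher in Ex3abERKO than in Ex3aERKO and 13 higher than in Ex3bERKO, and of 24 lymphocyte genes 9 and 16. Jchain averaged 5.18 ± 0.87 in Ex3abERKO, 1.88 ± 0.82 in Ex3aERKO, -0.28 ± 2.27 in Ex3bERKO and -0.79 ± 0.88 in control, higher in Ex3abERKO by 3.31 (adjusted p = 0.0332) and 5.46 (adjusted p = 0.00128). Of 29 cholesterol genes, 6 were lower than in Ex3aERKO and 7 lower than in Ex3bERKO, beside the 24 lower than in control, and whether these counts differ was not tested.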

How the data were processed

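Per the labels' protocols, TRIzol-extracted total RNA of whole ovaries was labelled with Cy3 and hybridised to single-colour arrays. Per the file headers, the authors' scanner files came from Agilent Feature Extraction 9.5, and their deposited intensity values are background-corrected processed signals. The authors' deposited series table held the same intensity for all 41174 probes (relative tolerance 0.0001, column medians 149 to 253), so its scale is linear and its values are neither centred nor scaled. Here log2 of that signal over each array's 75th percentile was fitted with limma 3.58.1 in R 4.3.3 over all 16 arrays, with 1 mean per group and 12 residual degrees of freedom. Probes well above background on at least 4 arrays were kept, and the brightest kept probe stood for its gene. Symbols were found by accession for 22951 probes, by current symbol for 6659 and by older symbol for 3109, and 8455 had none. Benjamini-Hochberg adjusted p under 0.05 was the threshold. Where a probe stayed below the background limit throughout a group, the difference is given as a bound, against, per array, the lowest signal well above background or the probe's own, where higher. In simulated data of 24369 features, 100 were changed by 1 log2 unit and 100 by 2. The fit recovered 32% and 71% of these, and called 5 unchanged features. Far fewer features were changed there than were called in the data, and the adjusted threshold depends on that share. These rates therefore do not measure recovery in this comparison. The number of arrays limits the precision.

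The text names the 15 highest and 15 lowest called genes with a symbol whose groups did not overlap and that were above background on all arrays of the brighter group, genes of 44 lists, Esr1 and Esr2, and the 10 largest interactions in each direction among genes also called against control, leaving out interactions of genes above background on no array of a group. The comparison, these lists and the 3 arrays left out together were chosen with earlier results of these data known. Alternatives covered the background correction, scaling, filter, probe choice, slide, replicate number, array weights, variance model, source table and arrays left out. Some genes of the lists are not reported here by name.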

Additional observations from a re-analysis of the deposited data

Results flagged for a closer look

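An array far from the other 3 of its group was found in 30 of 367 groups of 4 (8.17%), where chance gives about 1 in 20. Ex3abERKO 3 and control 2 were that array 10 times each, while Ex3abERKO 2 never was.

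In Ex3abERKO 3 the outlying levels were -1.48 for Ramp3, 4.45 for Igf1, 3.78 for Wt1, -4.04 for Bmp2, -0.36 for Bmp6, 1.80 for Csf1r, 1.30 for Fabp5, 3.88 for Jchain, -3.61 for Mmp15 and 4.17 for Tsc22d3. In Ex3abERKO 1 they were 1.18 for Rasd1, 3.41 for Scarb1, -3.78 for Gjb2 and -2.47 for Cyp4f15, and in Ex3abERKO 4 it was 7.03 for Dcn. In control 2 they were 0.34 for Esr2, -6.69 for 1700018G05Rik, 6.09 for Inhba, -1.76 for Hhip, 4.83 for Fdxr, 7.64 for Hsd3b1, 3.56 for Cyp19a1, 0.83 for Plin5, -2.63 for Oxtr and 1.33 for Runx2. In control 4 they were -1.45 for Nr5a1 and -8.84 for 4933402E13Rik, a level not well above background. In control 1 they were -8.54 for Defb7, also not well above background, and -0.13 for Ahsg, and in control 3 it was -3.70 for Fabp5.

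Among the interactions followed here, the change that went with the loss of ERβ differed for 22 genes by whether ERα was also lost, tested as the interaction in the same limma fit. Most of the 22 were named because their interaction was among the largest called, so this count was largely fixed by the choice. Over all features 3.55% had a called interaction. Other named genes, such as Defb36 and Mpped2, also had a called interaction and are not among these 22. Above 0 were Mmel1 (6.46), Wnt10b (5.76), Cstdc1 (5.71), Plin4 (5.62), Etd (5.59), Igkv3-12 (5.52), Ssu2 (5.41), Runx2 (5.37), Cst9 (5.0) and Hsd17b7 (3.1). Below 0 were Hsd17b3 (-8.17), Lcn2 (-7.03), Insl3 (-6.63), C1qtnf3 (-6.10), Klhl31 (-5.82), Cyp17a1 (-5.74), Cyp4f15 (-5.67), Ptgds (-5.57), Eppin (-4.76), Oca2 (-4.60), Bpifb5 (-4.55) and Rhox5 (-4.22). Without the 3 arrays 5 of the 22 were no longer called, and with normexp 5. Leaving out any single Ex3abERKO or control array lost 1 or 2 of these calls, replicate number as a block 2 and slide as a block 1. No interaction is given for 4933402E13Rik and Defb7, since neither was well above background on any control array.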

How the results depend on the processing

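Of 184 genes followed through the alternatives, 179 were called, 165 of them in every fit that left out 1 Ex3abERKO or control array. Of the 179, 143 lost no call in any alternative that tested them, and 26 had no test with the filter on all 16 arrays. With normexp the features called against control numbered 3122 (1468 higher, 1654 lower), against Ex3aERKO 742, against Ex3bERKO 1928 and in the interaction 339. Without the 3 arrays, which leaves fewer samples, they numbered 3226 (1458 lower), 843, 2444 and 252. With array weights 8844 were called against control, 5326 of them lower, 6331 against Ex3bERKO and 1861 in the interaction, and with slide as a block 2145 against Ex3bERKO. Leaving out single Ex3abERKO or control arrays gave 3873 to 6311 calls against control, 2048 to 2687 higher and 1825 to 3624 lower, 1298 to 2268 against Ex3aERKO, 2922 to 5038 against Ex3bERKO and 504 to 1329 in the interaction. Dmrt1 (-0.23), Stra8 (-0.041) and Defb7 (-0.33) were below 0 with normexp, against 2.54 to 3.01, 0.89 to 1.42 and 1.41 to 2.94 when single arrays were left out. Cyp17a1, not called, was 0.011 with array weights and -0.45 to 0.25 when single arrays were left out, 0.25 being without control 2. The causes were not tested. Of 53 counts of at least 3 list members, normexp moved 18, leaving out the 3 arrays 17, array weights 8 and single arrays up to 9 by over 1.5 times.

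The replicate numbers did not pair the samples, with correlations of deviations between same-numbered arrays of 0.048, 0.121, -0.109 and -0.092, and with replicate number as a block 5177 features were called. Median list differences had the same sign on all 3 slides for 32 of 44 lists. Signals near background have no settled order, and no depth applies to arrays.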
